A study of Danio rerio with 3 samples.

Results

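The genes described are those of the phagocyte NADPH oxidase in zebrafish kidney marrow: the membrane subunits *cybb* and *cyba*, the cytosolic subunits *ncf1* and *ncf4*, the small GTPase *rac2*, and the proton channel *hvcn1*. They were chosen by symbol and not by a measured value, although earlier results of these data were known. All 6 were found among the 32057 genes of the deposited tables. The kidneys came from adult zebrafish that carried 2 transgenes, *gata2a:GFP* and *runx1:mCherry*. Their GFP and mCherry fluorescence defined 3 sorted populations, and 1 RNA-seq library was made from each. These were *gata2a*+ *runx1*+ cells, which the submitters call HSCs, *gata2a*- *runx1*+ cells, which they call erythroid- and/or myeloid-primed progenitors, and *gata2a*+ *runx1*- cells, which they call lymphoid-primed progenitors. The genotype is labelled wild type for all 3. For the *gata2a*+ *runx1*- cells the study also describes a myeloid signature beside the lymphoid one. It proposes that some myeloid progenitors may lie in that fraction. The mCherry of the second transgene is driven by an enhancer of the mouse *Runx1* gene, so that a *runx1*+ cell is one in which this enhancer was active. All 3 gates lay within the low side scatter fraction, which the study calls non-granulocytic, and erythrocytes were lysed beforehand. The number of fish behind each library is not given in the sources used here.

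The phagocyte oxidase is the enzyme of the respiratory burst. Known best from human and mouse neutrophils and macrophages, it is assembled on the membrane of the phagosome, where a heterodimer of the *cybb* and *cyba* products carries electrons from cytosolic NADPH to oxygen and makes superoxide. The *ncf1* and *ncf4* products wait in the cytosol and move to the membrane with active Rac when the cell is stimulated. Loss of any of several of these subunits causes chronic granulomatous disease in humans. The sequences of these genes and proteins were not used here.

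The libraries held between 8094670 and 8205803 reads counted on genes, and between 15366 and 16352 genes with at least 1 read. With 1 library per population, no difference has a replicate check. Values are reads and RPM, the reads of a gene scaled to a common total of reads counted on genes in each library. A gene was called higher or lower where its RPM differed over 2-fold between 2 libraries, with counts of 3 reads or fewer (0.366 to 0.371 RPM) taken as 3 reads. Intervals are exact 95% intervals, and they and the floor of 3 reads cover counting error only, because copies made by PCR are not independent molecules. Fisher's exact test was two-sided and adjusted over all genes with a read in either library, and it compares the 2 libraries and not the populations. In RNA from bulk cells, fewer cells that express a gene and less RNA of it per cell cannot be told apart. The transcript of the gate gene *gata2a* was at 344.4 RPM in the *gata2a*+ *runx1*+ library, 11.8 RPM in the *gata2a*- *runx1*+ library, and 1354 RPM in the *gata2a*+ *runx1*- library. That of *runx1* had 39 reads in the *gata2a*+ *runx1*+ library, 29 reads in the *gata2a*- *runx1*+ library, and 19 reads in the *gata2a*+ *runx1*- library.

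Of the 6 genes, 5 were highest in the *gata2a*+ *runx1*- library, and for each of these 5 the RPM there exceeded both others over 2-fold. Among all 16501 genes compared in this way, 17.8% were over 2-fold higher in the *gata2a*+ *runx1*- library than in each other population, and 38.2% had their highest RPM there. The exception was *ncf4*, which was about level in both *gata2a*+ populations. Likewise 5 of the 6 were lowest in the *gata2a*- *runx1*+ library, with *hvcn1* at 1 read there against 7 reads in the *gata2a*+ *runx1*+ library. The exception was *cybb*, which was lowest in the *gata2a*+ *runx1*+ library, though within 2-fold of the *gata2a*- *runx1*+ library. Of all 16501 genes, 33.0% had their lowest RPM in the *gata2a*- *runx1*+ library, ties not counted. The genes of the oxidase therefore did not share 1 profile over the 3 populations.

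**Figure D1:**
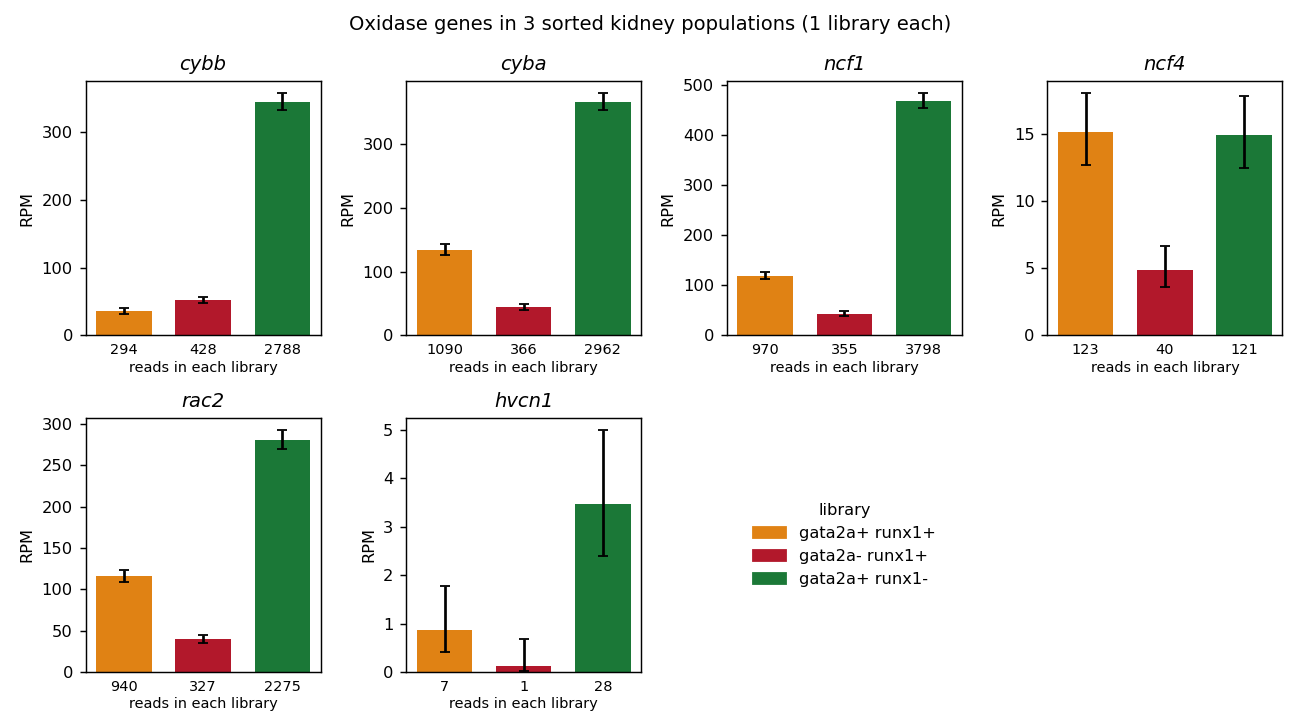
RPM of the 6 oxidase genes in the 3 libraries (bars, 1 library each, vertical axis from 0 and its own scale for each gene), with 95% Wilson intervals for counting error and the reads under each bar. The *gata2a*+ *runx1*- bar is the tallest for *cybb*, *cyba*, *ncf1*, *rac2*, and *hvcn1*, at 344.4, 365.9, 469.2, 281.1, and 3.46 RPM, whereas for *ncf4* the bar of the *gata2a*+ *runx1*+ library, at 15.1 RPM, is level with that of the *gata2a*+ *runx1*- library, at 14.95 RPM.

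Of the membrane subunits, *cybb* (ENSDARG00000056615), which encodes the catalytic subunit with its flavin and heme groups, had 294 reads or 36.2 RPM in the *gata2a*+ *runx1*+ library, 428 reads or 52.2 RPM in the *gata2a*- *runx1*+ library, and 2788 reads or 344.4 RPM in the *gata2a*+ *runx1*- library. It was thus low in both *runx1*+ populations and high in the third. Its RPM in the *gata2a*+ *runx1*+ library was 0.694 times that in the *gata2a*- *runx1*+ library (0.596 to 0.807), a difference within 2-fold that still passed Fisher's exact test (adjusted p = 5.6e-06). Compared with the *gata2a*+ *runx1*- library, it was 0.105 times as high in the *gata2a*+ *runx1*+ library (0.0929 to 0.119) and 0.151 times as high in the *gata2a*- *runx1*+ library (0.137 to 0.168).

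*cyba* (ENSDARG00000018283) encodes the smaller membrane subunit, which holds the catalytic subunit stable and docks the cytosolic subunits. It had 1090 reads or 134.2 RPM in the *gata2a*+ *runx1*+ library, 366 reads or 44.6 RPM in the *gata2a*- *runx1*+ library, and 2962 reads or 365.9 RPM in the *gata2a*+ *runx1*- library. Unlike *cybb*, it was at 3 separate levels, with the *gata2a*+ *runx1*+ library in the middle. It was 3.01-fold higher in the *gata2a*+ *runx1*+ than in the *gata2a*- *runx1*+ library (2.67 to 3.40), and 0.367 times as high in the *gata2a*+ *runx1*+ as in the *gata2a*+ *runx1*- library (0.342 to 0.393). In the *gata2a*- *runx1*+ library it was 0.122 times as high as in the *gata2a*+ *runx1*- library (0.109 to 0.136).

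The folds of the membrane partners were therefore least alike where the *gata2a*+ *runx1*+ library was compared. The fold of *cyba* between the *gata2a*+ *runx1*+ and *gata2a*- *runx1*+ libraries was 4.34 times that of *cybb* (3.57 to 5.27), and between the *gata2a*+ *runx1*+ and *gata2a*+ *runx1*- libraries it was 3.49 times that of *cybb* (3.03 to 4.02). Between the *gata2a*- *runx1*+ and *gata2a*+ *runx1*- libraries it was 0.805 times that of *cybb* (0.692 to 0.937). Such a ratio of folds does not depend on how the libraries are scaled, because both genes are scaled alike. The comparison of folds between genes was chosen after the values were seen.

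Of the cytosolic subunits, *ncf1* (ENSDARG00000033735, listed as NCF1) encodes the organizer, whose phosphorylation starts the assembly. It had 970 reads or 119.4 RPM in the *gata2a*+ *runx1*+ library, 355 reads or 43.3 RPM in the *gata2a*- *runx1*+ library, and 3798 reads or 469.2 RPM in the *gata2a*+ *runx1*- library. Its order was that of *cyba*. It was 2.76-fold higher in the *gata2a*+ *runx1*+ than in the *gata2a*- *runx1*+ library (2.44 to 3.13) and 0.254 times as high in the *gata2a*+ *runx1*+ as in the *gata2a*+ *runx1*- library (0.237 to 0.273). Between the *gata2a*- *runx1*+ and *gata2a*+ *runx1*- libraries the ratio was 0.0922 (0.0825 to 0.103), the smallest of the 6 genes apart from *hvcn1*, which had a single read in the *gata2a*- *runx1*+ library.

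*ncf4* (ENSDARG00000040812, listed as NCF4) encodes the subunit that binds a phosphoinositide of the phagosome membrane. It had 123 reads or 15.1 RPM in the *gata2a*+ *runx1*+ library, 40 reads or 4.87 RPM in the *gata2a*- *runx1*+ library, and 121 reads or 14.95 RPM in the *gata2a*+ *runx1*- library. The 2 *gata2a*+ populations could not be ordered, since the ratio of the *gata2a*+ *runx1*+ to the *gata2a*+ *runx1*- library was 1.01 (0.782 to 1.31; adjusted p = 1 by Fisher's exact test). This interval leaves room for a difference of up to about 1.31-fold in counting alone. The level in the *gata2a*- *runx1*+ library was apart from both: the gene was 3.11-fold higher in the *gata2a*+ *runx1*+ than in the *gata2a*- *runx1*+ library (2.16 to 4.56), and 0.326 times as high in the *gata2a*- *runx1*+ as in the *gata2a*+ *runx1*- library (0.222 to 0.470).

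*rac2* (ENSDARG00000038010) encodes the Rac GTPase of hematopoietic cells, which in its GTP-bound form joins the oxidase. It had 940 reads or 115.7 RPM in the *gata2a*+ *runx1*+ library, 327 reads or 39.9 RPM in the *gata2a*- *runx1*+ library, and 2275 reads or 281.1 RPM in the *gata2a*+ *runx1*- library. The order was again that of *cyba* and *ncf1*, although *rac2* serves cell migration and actin control as well as the oxidase. It was 2.90-fold higher in the *gata2a*+ *runx1*+ than in the *gata2a*- *runx1*+ library (2.56 to 3.30), and 0.412 times as high in the *gata2a*+ *runx1*+ as in the *gata2a*+ *runx1*- library (0.381 to 0.444). In the *gata2a*- *runx1*+ library it was 0.142 times as high as in the *gata2a*+ *runx1*- library (0.126 to 0.159).

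*hvcn1* (ENSDARG00000040338, listed as HVCN1) encodes a voltage-gated proton channel, which lets protons out of the cytosol and so offsets the charge that the oxidase moves. It had the fewest reads, with 7 reads or 0.86 RPM in the *gata2a*+ *runx1*+ library, 1 read or 0.12 RPM in the *gata2a*- *runx1*+ library, and 28 reads or 3.46 RPM in the *gata2a*+ *runx1*- library. Only the level in the *gata2a*+ *runx1*- library stood apart at this depth. It was 0.249 times as high in the *gata2a*+ *runx1*+ as in the *gata2a*+ *runx1*- library (0.0919 to 0.584), and 0.0352 times as high in the *gata2a*- *runx1*+ as in the *gata2a*+ *runx1*- library (0.000862 to 0.213). The ratio of the *gata2a*+ *runx1*+ to the *gata2a*- *runx1*+ library was 7.07 with an interval of 0.908 to 319, and it did not pass Fisher's exact test (adjusted p = 0.077).

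Counted over the set, 5 of the 6 genes were over 2-fold higher in the *gata2a*+ *runx1*+ than in the *gata2a*- *runx1*+ library, against 23.5% of the 14886 genes tested. Of these 5, *cyba*, *ncf1*, *ncf4*, and *rac2* also passed Fisher's exact test and *hvcn1* did not, and 20.8% of all genes were called higher when the test was required as well. None of the 6 was over 2-fold lower. The median log2 ratio of the 6 genes was 1.501, and that of all genes tested was 0.14.

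Between the *gata2a*+ *runx1*+ and *gata2a*+ *runx1*- libraries, 5 of the 6 genes were over 2-fold lower in the *gata2a*+ *runx1*+ library, against 24.0% of the 15724 genes tested. All but *ncf4* were in this count, and the median log2 ratio was -1.71, compared with 0.03 over all genes. Between the *gata2a*- *runx1*+ and *gata2a*+ *runx1*- libraries, all 6 were over 2-fold lower in the *gata2a*- *runx1*+ library, against 29.0% of the 15375 genes tested, with a median log2 ratio of -2.93 compared with -0.10 over all genes. Every gene counted in these 2 comparisons also passed Fisher's exact test. With that test required as well, 21.7% of all genes were called lower in the first of these comparisons and 26.7% in the second. The 3 comparisons share libraries, so that a low level in 1 library enters 2 of them.

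**Figure D2:**
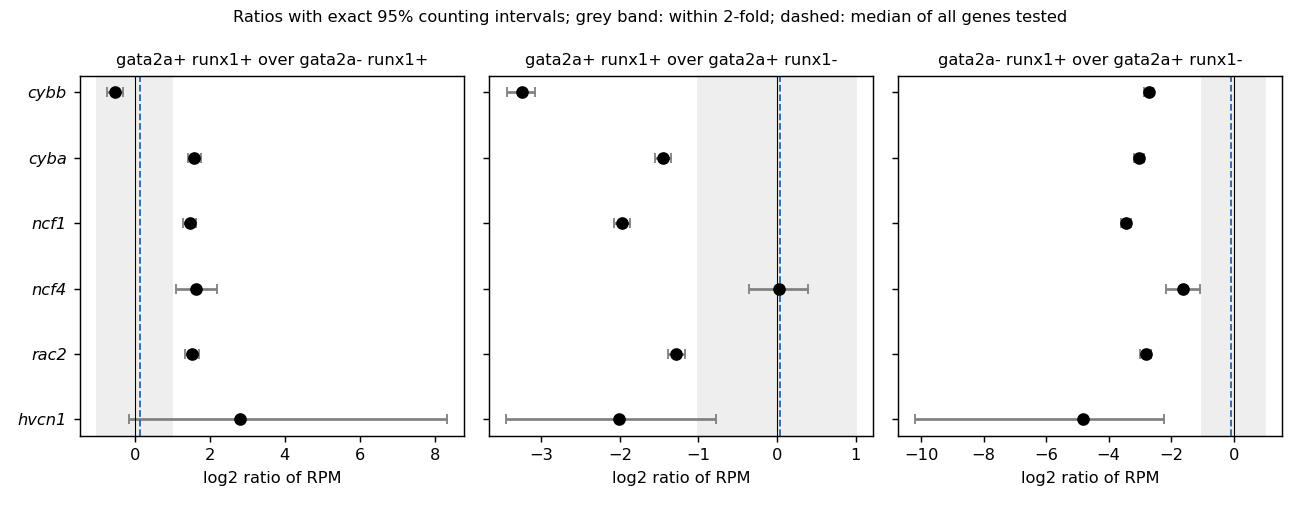
Log2 ratio of RPM of the 6 oxidase genes in each of the 3 comparisons (points, horizontal axis on a log2 scale that differs by panel), with exact 95% counting intervals, a grey band for ratios within 2-fold, and a dashed line at the median of all genes tested. In the left panel *cybb* alone lies below 0, at -0.53, while *cyba*, *ncf1*, *ncf4*, and *rac2* lie between 1.47 and 1.64, and in the middle panel the points are spread from -3.25 for *cybb* to 0.02 for *ncf4*.

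How alike the folds of the genes were depended on the comparison. There were 15 pairs of genes in each comparison, or 45 in all. A count of intervals that exclude 1 depends on the reads of the genes as well as on their folds. The same count was not made over pairs of all genes, so these counts have no background. Between the *gata2a*+ *runx1*+ and *gata2a*- *runx1*+ libraries, the 95% interval of the ratio of folds excluded 1 in 5 of the 15 pairs, and *cybb* was in each of those 5. Among *cyba*, *ncf1*, *ncf4*, and *rac2*, the ratios of the 6 pairs lay between 0.889 and 1.09 and 0 intervals excluded 1. The intervals reached from 0.593 to 1.604, so that smaller differences between these genes were not detectable at this depth.

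Between the *gata2a*+ *runx1*+ and *gata2a*+ *runx1*- libraries, in contrast, the interval excluded 1 in 11 of the 15 pairs. The extremes were *cybb* and *ncf4*, whose folds differed by a ratio of 0.104 (0.0778 to 0.139). The fold of *ncf1* was 0.251 times that of *ncf4* (0.192 to 0.329). Between the *gata2a*- *runx1*+ and *gata2a*+ *runx1*- libraries it excluded 1 in 9 of the 15 pairs. There *cyba* and *rac2* (ratio 0.860, 0.731 to 1.01) and *cybb* and *rac2* (1.07, 0.913 to 1.25) were not told apart. No interval was adjusted for the number of pairs. The ratios of folds among *cyba*, *ncf1*, *ncf4*, and *rac2*, taken without their intervals, lay between 0.251 and 2.46 in the first of these 2 comparisons. In the second they lay between 0.283 and 2.30.

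The profile of a gene was also written as the percent of its RPM, summed over the 3 libraries, that fell in each library. For *cybb* these shares were 8.36% in the *gata2a*+ *runx1*+ library, 12.1% in the *gata2a*- *runx1*+ library, and 79.6% in the *gata2a*+ *runx1*- library. For *cyba* they were 24.6% in the *gata2a*+ *runx1*+ library, 8.19% in the *gata2a*- *runx1*+ library, and 67.2% in the *gata2a*+ *runx1*- library, and for *ncf1* 18.9% in the *gata2a*+ *runx1*+ library, 6.85% in the *gata2a*- *runx1*+ library, and 74.3% in the *gata2a*+ *runx1*- library. *rac2* was close to *cyba*, with 26.5% in the *gata2a*+ *runx1*+ library, 9.13% in the *gata2a*- *runx1*+ library, and 64.4% in the *gata2a*+ *runx1*- library. *ncf4* had 43.3% in the *gata2a*+ *runx1*+ library, 13.9% in the *gata2a*- *runx1*+ library, and 42.8% in the *gata2a*+ *runx1*- library, and it was the only 1 of the 6 genes with under a majority in the *gata2a*+ *runx1*- library.

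**Figure D3:**
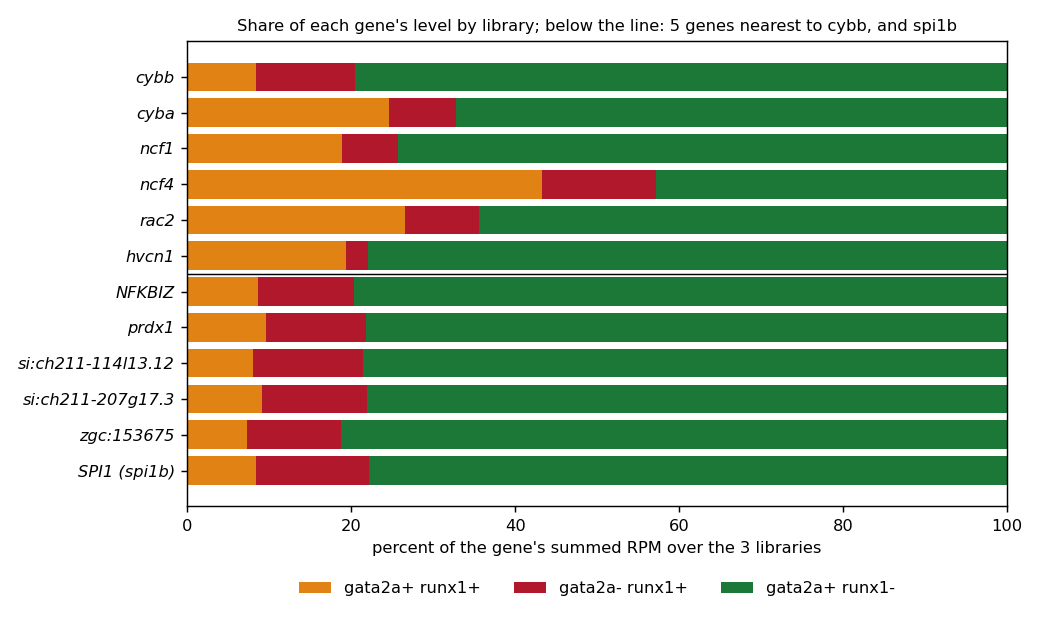
Percent of each gene's RPM, summed over the 3 libraries, that falls in each library (stacked bars, horizontal axis from 0 to 100%), for the 6 oxidase genes above the line and for the 5 genes nearest to *cybb* and *spi1b* (listed as SPI1) below it. The *gata2a*+ *runx1*- share is 79.6% for *cybb* and 42.8% for *ncf4*, and the bars of the nearest genes were chosen for likeness to that of *cybb*.

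Among 6186 genes with a symbol and at least 300 reads over the 3 libraries, the 5 with the profile most like that of *cybb* were NFKBIZ, a nuclear regulator of NF-kB target genes, *prdx1* (ENSDARG00000058734), a peroxiredoxin that reduces hydrogen peroxide, si:ch211-114l13.12, si:ch211-207g17.3, and zgc:153675. Likeness was the largest difference of the 3 shares, and it was 0.36 percentage points for NFKBIZ and between 1.36 and 1.73 points for the others. NFKBIZ was at 6.40 RPM in the *gata2a*+ *runx1*+ library, 8.65 RPM in the *gata2a*- *runx1*+ library, and 58.9 RPM in the *gata2a*+ *runx1*- library. These 5 were picked as the nearest, so that every other gene was less like *cybb*. Among the 6186 genes, *ncf1* differed by 10.5 points and would take rank 119. *cyba* differed by 16.3 points at rank 308, and *rac2* by 18.1 points at rank 365. *ncf4*, whose 284 reads were under the limit of 300, differed by 36.8 points and would take rank 1417. *hvcn1* differed by 11.01 points, from only 36 reads. Likeness over 3 libraries is a description and was not tested.

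The other NADPH oxidases and their partners were scarcely read. Of 9 further subunits sought, 8 were found, and these had at most 7 reads in any library. *nox1* and NOX4 encode catalytic subunits of different oxidases outside phagocytes, and *noxa1* encodes an activator. *nox1*, NOX4, and *noxa1* had 0 reads in all 3 libraries, which by the floor of 3 reads allows up to 0.371 RPM each. NOX5 had 1 read in the *gata2a*+ *runx1*+ library and 0 reads in the others. *duox*, the dual oxidase of epithelia, had 2 reads in the *gata2a*+ *runx1*+ library, 2 reads in the *gata2a*- *runx1*+ library, and 0 reads in the *gata2a*+ *runx1*- library.

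The organizers *noxo1a* and *noxo1b* had opposite patterns at very low counts. *noxo1a* had 7 reads in the *gata2a*+ *runx1*+ library, 6 reads in the *gata2a*- *runx1*+ library, and 0 reads in the *gata2a*+ *runx1*- library, and *noxo1b* had 0 reads in the *gata2a*+ *runx1*+ library, 0 reads in the *gata2a*- *runx1*+ library, and 6 reads in the *gata2a*+ *runx1*- library. CYBC1, a chaperone that in human and mouse helps the membrane heterodimer to mature, had 1 read in the *gata2a*+ *runx1*+ library, 1 read in the *gata2a*- *runx1*+ library, and 7 reads in the *gata2a*+ *runx1*- library. The ratio of the *gata2a*+ *runx1*+ to the *gata2a*+ *runx1*- library for CYBC1 was 0.142 (0.00316 to 1.11).

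The genes around the oxidase were described by lists of its regulators, its fuel, and its products, and each list's counts are to be read against those of all genes tested. Of these, 23.5% were over 2-fold higher and 13.5% lower in the *gata2a*+ *runx1*+ than in the *gata2a*- *runx1*+ library, 20.5% higher and 24.0% lower in the *gata2a*+ *runx1*+ than in the *gata2a*+ *runx1*- library, and 20.1% higher and 29.0% lower in the *gata2a*- *runx1*+ than in the *gata2a*+ *runx1*- library. Of the Rac GTPases and their regulators, 2 of 10 genes tested were over 2-fold higher and 2 lower in the *gata2a*+ *runx1*+ than in the *gata2a*- *runx1*+ library. Against the *gata2a*+ *runx1*- library, 3 of 10 were higher and 1 lower in the *gata2a*+ *runx1*+ library, and 3 of 9 were higher and 3 lower in the *gata2a*- *runx1*+ library. Another Rac gene, listed as RAC3 (ENSDARG00000090062), ran against *rac2*: it had 31 reads or 3.82 RPM in the *gata2a*+ *runx1*+ library, 876 reads or 106.8 RPM in the *gata2a*- *runx1*+ library, and 0 reads in the *gata2a*+ *runx1*- library. In the *gata2a*- *runx1*+ library it was 288-fold higher than the floor of 3 reads in the *gata2a*+ *runx1*- library. The exact interval of this ratio, from the 0 reads counted, began at 233.8. The other gene listed as RAC3 (ENSDARG00000020795) had the order of *rac2*. It was at 4.92 RPM in the *gata2a*+ *runx1*+ library, 4.14 RPM in the *gata2a*- *runx1*+ library, and 9.27 RPM in the *gata2a*+ *runx1*- library. TIAM1 (ENSDARG00000078430), a Rac exchange factor, was at 0.98 RPM in the *gata2a*+ *runx1*+ library, 8.04 RPM in the *gata2a*- *runx1*+ library, and 3.34 RPM in the *gata2a*+ *runx1*- library. *arhgdig* is of a family of inhibitors that hold Rac in the cytosol. It was at 783.6 RPM in the *gata2a*+ *runx1*+ library, 207.7 RPM in the *gata2a*- *runx1*+ library, and 568.3 RPM in the *gata2a*+ *runx1*- library. *arhgdig* was thus highest in the *gata2a*+ *runx1*+ library, though within 2-fold of the *gata2a*+ *runx1*- library.

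The kinases upstream of the oxidase, among them those that phosphorylate the *ncf1* product, differed most often where the *gata2a*- *runx1*+ library was compared. Of 17 genes tested, 7 were over 2-fold higher and 2 lower in the *gata2a*+ *runx1*+ than in the *gata2a*- *runx1*+ library, with a median log2 ratio of 0.49. Only 2 differed over 2-fold between the *gata2a*+ *runx1*+ and *gata2a*+ *runx1*- libraries, both of them lower in the *gata2a*+ *runx1*+ library. Against the *gata2a*+ *runx1*- library, 9 were lower and 3 higher in the *gata2a*- *runx1*+ library. PRKCD (ENSDARG00000009208), a protein kinase C, was at 215.7 RPM in the *gata2a*+ *runx1*+ library, 39.1 RPM in the *gata2a*- *runx1*+ library, and 162.6 RPM in the *gata2a*+ *runx1*- library. LYN, a Src-family kinase, was at 33.5 RPM in the *gata2a*+ *runx1*+ library, 7.92 RPM in the *gata2a*- *runx1*+ library, and 24.2 RPM in the *gata2a*+ *runx1*- library. The other gene listed as PRKCD (ENSDARG00000070651) was at 4.43 RPM in the *gata2a*+ *runx1*+ library, 1.83 RPM in the *gata2a*- *runx1*+ library, and 6.30 RPM in the *gata2a*+ *runx1*- library. PRKCD (ENSDARG00000009208) and LYN were thus highest in the *gata2a*+ *runx1*+ library, though within 2-fold of the *gata2a*+ *runx1*- library.

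The phagocyte receptors, which trigger the burst, had, of the 7 further pathway lists, the medians nearest to those of the oxidase genes. Of 14 tested, 10 were over 2-fold higher and 0 lower in the *gata2a*+ *runx1*+ than in the *gata2a*- *runx1*+ library. Against the *gata2a*+ *runx1*- library, 10 of 16 were lower and 2 higher in the *gata2a*+ *runx1*+ library, and 14 of 15 were lower and 0 higher in the *gata2a*- *runx1*+ library. The median log2 ratio of the receptors was 1.43 for *gata2a*+ *runx1*+ over *gata2a*- *runx1*+, -1.44 for *gata2a*+ *runx1*+ over *gata2a*+ *runx1*-, and -2.34 for *gata2a*- *runx1*+ over *gata2a*+ *runx1*-. Over 3 reads were counted for 13 of the 17 receptor genes in the *gata2a*+ *runx1*+ library, 6 in the *gata2a*- *runx1*+ library, and 15 in the *gata2a*+ *runx1*- library. In the *gata2a*- *runx1*+ library 9 had 0 reads, so the medians against that library depend partly on the floor of 3 reads. *fcer1gl*, a signaling chain of Fc receptors, was at 8.0 RPM in the *gata2a*+ *runx1*+ library, 9.02 RPM in the *gata2a*- *runx1*+ library, and 61.0 RPM in the *gata2a*+ *runx1*- library, low in both *runx1*+ populations as *cybb* was. The mannose receptor genes differed from each other. MRC1 had 10 reads in the *gata2a*+ *runx1*+ library, 0 reads in the *gata2a*- *runx1*+ library, and 186 reads in the *gata2a*+ *runx1*- library, whereas *mrc1b* was at 1731 RPM in the *gata2a*+ *runx1*+ library, 86.7 RPM in the *gata2a*- *runx1*+ library, and 379.6 RPM in the *gata2a*+ *runx1*- library.

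As a list, the genes that handle superoxide and hydrogen peroxide did not follow the oxidase. Single genes did, among them *prdx1* (ENSDARG00000058734), which was low in both *runx1*+ populations as *cybb* was. This gene was picked above for its likeness to *cybb*, so that likeness is not a separate result. Its 29 reads in the *gata2a*+ *runx1*+ library and 37 reads in the *gata2a*- *runx1*+ library were not told apart (ratio 0.792, 0.470 to 1.32). In the *gata2a*+ *runx1*+ library, 0 of 16 tested were over 2-fold higher and 4 lower than in the *gata2a*- *runx1*+ library, and 2 were higher and 5 lower than in the *gata2a*+ *runx1*- library. Between the *gata2a*- *runx1*+ and *gata2a*+ *runx1*- libraries, 3 were higher and 3 lower in the *gata2a*- *runx1*+ library. The myeloperoxidase gene *mpx*, whose product turns the hydrogen peroxide of the burst into hypochlorous acid, was at 105.9 RPM in the *gata2a*+ *runx1*+ library, 214.1 RPM in the *gata2a*- *runx1*+ library, and 50.3 RPM in the *gata2a*+ *runx1*- library. Its order was the reverse of that of *cyba*, *ncf1*, and *rac2*. The peroxiredoxin gene listed as PRDX1 (ENSDARG00000025350) was at 272.4 RPM in the *gata2a*+ *runx1*+ library, 1496 RPM in the *gata2a*- *runx1*+ library, and 188.3 RPM in the *gata2a*+ *runx1*- library, and its namesake *prdx1* (ENSDARG00000058734) was at 3.57 RPM in the *gata2a*+ *runx1*+ library, 4.51 RPM in the *gata2a*- *runx1*+ library, and 29.0 RPM in the *gata2a*+ *runx1*- library. *gpx1a*, a glutathione peroxidase, was at 3.32 RPM in the *gata2a*+ *runx1*+ library, 21.8 RPM in the *gata2a*- *runx1*+ library, and 20.4 RPM in the *gata2a*+ *runx1*- library.

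The enzymes that supply NADPH, mainly those of the pentose phosphate pathway, differed most between the *gata2a*+ populations. Of 8 tested, 5 were over 2-fold lower and 1 higher in the *gata2a*+ *runx1*+ than in the *gata2a*+ *runx1*- library. Of 9 tested in each of the other comparisons, 1 was higher and 2 lower in the *gata2a*+ *runx1*+ than in the *gata2a*- *runx1*+ library, and 1 was higher and 3 lower in the *gata2a*- *runx1*+ than in the *gata2a*+ *runx1*- library. PGD, which makes NADPH from 6-phosphogluconate, was at 175.9 RPM in the *gata2a*+ *runx1*+ library, 101.0 RPM in the *gata2a*- *runx1*+ library, and 402.0 RPM in the *gata2a*+ *runx1*- library, the order of *cyba*. PGLS, the lactonase of that pathway, was at 1.35 RPM in the *gata2a*+ *runx1*+ library, 5.85 RPM in the *gata2a*- *runx1*+ library, and 7.78 RPM in the *gata2a*+ *runx1*- library, and RPIA, a ribose phosphate isomerase, at 6.40 RPM in the *gata2a*+ *runx1*+ library, 6.70 RPM in the *gata2a*- *runx1*+ library, and 2.22 RPM in the *gata2a*+ *runx1*- library.

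Among the transcription factors of phagocytes, SPI1 and IRF8 were low in both *runx1*+ populations, as *cybb* was, and CEBPB had the order of *cyba*. Of 12 tested, 2 were over 2-fold higher and 1 lower in the *gata2a*+ *runx1*+ than in the *gata2a*- *runx1*+ library. Against the *gata2a*+ *runx1*- library, 1 was higher and 5 lower in the *gata2a*+ *runx1*+ library, and 1 was higher and 5 lower in the *gata2a*- *runx1*+ library. SPI1 (*spi1b*, ENSDARG00000000767), whose mammalian counterpart drives *CYBB* and other myeloid genes, was at 55.8 RPM in the *gata2a*+ *runx1*+ library, 91.4 RPM in the *gata2a*- *runx1*+ library, and 516.1 RPM in the *gata2a*+ *runx1*- library. The related gene *spi1a* was also low in both *runx1*+ populations. Its lowest level was in the *gata2a*- *runx1*+ library, as for *cyba*, and not in the *gata2a*+ *runx1*+ library, as for *cybb*. It was at 27.3 RPM in the *gata2a*+ *runx1*+ library, 21.1 RPM in the *gata2a*- *runx1*+ library, and 136.3 RPM in the *gata2a*+ *runx1*- library. IRF8, a factor of macrophage and dendritic lineages, was low in both *runx1*+ populations. It was at 20.1 RPM in the *gata2a*+ *runx1*+ library, 20.4 RPM in the *gata2a*- *runx1*+ library, and 358.9 RPM in the *gata2a*+ *runx1*- library. The ratio of IRF8 between the 2 *runx1*+ libraries was 0.986 (0.790 to 1.23), so they were not told apart. CEBPB, a factor of the granulocyte and macrophage lineages, was at 732.7 RPM in the *gata2a*+ *runx1*+ library, 98.0 RPM in the *gata2a*- *runx1*+ library, and 1690.0 RPM in the *gata2a*+ *runx1*- library, with the *gata2a*+ *runx1*+ library in the middle. These shared orders are descriptions over 3 libraries.

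**Figure D4:**
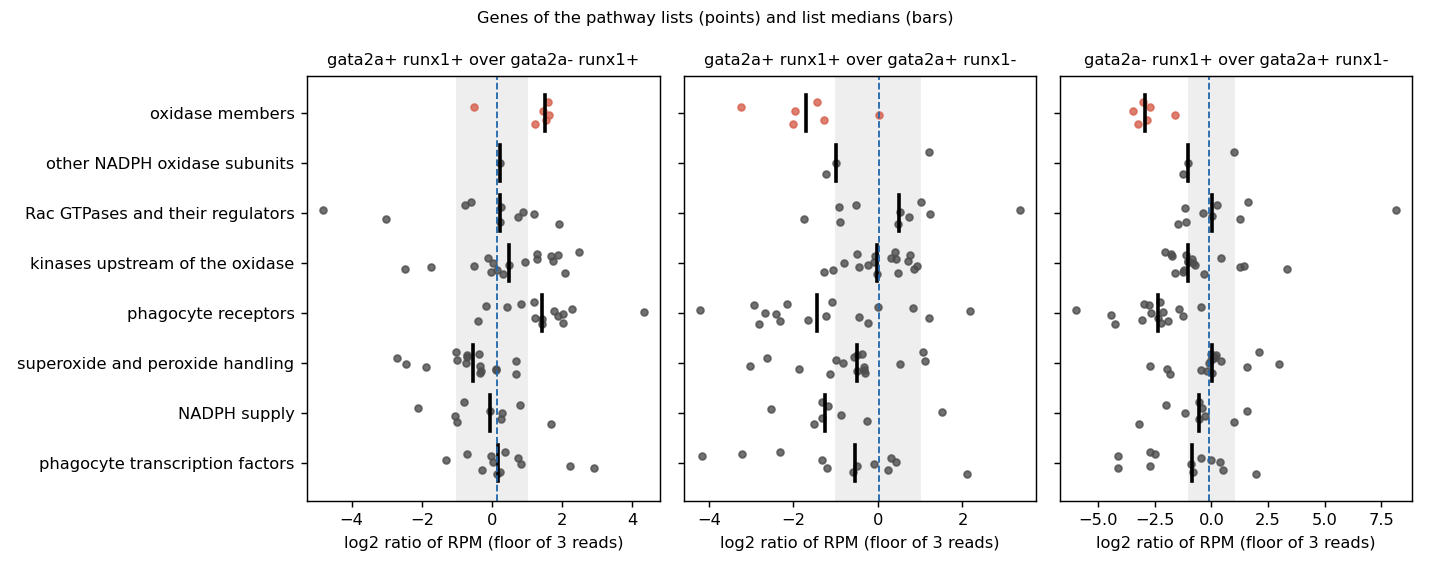
Log2 ratio of RPM (horizontal axis, floor of 3 reads, scale differs by panel) for the genes of the oxidase set and of 7 further lists (points, 1 row per list) in the 3 comparisons, with a bar at each list's median, a grey band for ratios within 2-fold, and a dashed line at the median of all genes tested. The oxidase genes and the phagocyte receptors have medians of 1.501 and 1.43 in the left panel and of -2.93 and -2.34 in the right one, while superoxide and peroxide handling is at -0.54 and 0.01. Only 6 of the 17 receptors had over 3 reads in the *gata2a*- *runx1*+ library, which enters both of these panels.

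Summed, the macrophage markers had the order of most of the oxidase genes, but not every marker did. The 22 macrophage marker genes summed to 1715 RPM in the *gata2a*+ *runx1*+ library, 527.7 RPM in the *gata2a*- *runx1*+ library, and 3211 RPM in the *gata2a*+ *runx1*- library, the order of *cyba*. Over 3 reads were counted for 13 of the 22 genes in the *gata2a*+ *runx1*+ library, 7 in the *gata2a*- *runx1*+ library, and 16 in the *gata2a*+ *runx1*- library. Most of this sum was *cd74a*, the invariant chain of antigen presentation, which B cells express too, at 1366 RPM in the *gata2a*+ *runx1*+ library, 344.1 RPM in the *gata2a*- *runx1*+ library, and 2402 RPM in the *gata2a*+ *runx1*- library. The lectin gene *lgals3b* was at 184.3 RPM in the *gata2a*+ *runx1*+ library, 81.9 RPM in the *gata2a*- *runx1*+ library, and 204.6 RPM in the *gata2a*+ *runx1*- library. Without *cd74a* the sums were 349.1 RPM in the *gata2a*+ *runx1*+ library, 183.5 RPM in the *gata2a*- *runx1*+ library, and 808.9 RPM in the *gata2a*+ *runx1*- library, in order as before. Of these, IRF8 made up 20.1 RPM in the *gata2a*+ *runx1*+ library, 20.4 RPM in the *gata2a*- *runx1*+ library, and 358.9 RPM in the *gata2a*+ *runx1*- library. Neither sum tells macrophages apart from other cells that express these genes. By gene, 10 of 13 tested were over 2-fold higher and 1 lower in the *gata2a*+ *runx1*+ library than in the *gata2a*- *runx1*+ library. Of all genes tested there, 23.5% were higher and 13.5% lower. Against the *gata2a*+ *runx1*- library, 9 of 17 were lower, 1 higher, and 7 within 2-fold in the *gata2a*+ *runx1*+ library (all genes, 24.0% lower and 20.5% higher). In the *gata2a*- *runx1*+ library, 15 of 16 were lower and 0 higher than in the *gata2a*+ *runx1*- library (all genes, 29.0% lower and 20.1% higher). *marco*, a scavenger receptor gene, was highest in the *gata2a*+ *runx1*+ library, though within 2-fold of the *gata2a*+ *runx1*- library. It was at 16.99 RPM in the *gata2a*+ *runx1*+ library, 3.53 RPM in the *gata2a*- *runx1*+ library, and 9.64 RPM in the *gata2a*+ *runx1*- library. Of the defining markers, the receptor gene *csf1ra* had 8 reads in the *gata2a*+ *runx1*+ library, 0 reads in the *gata2a*- *runx1*+ library, and 25 reads in the *gata2a*+ *runx1*- library. The perforin-like gene MPEG1 (ENSDARG00000055290) had 6 reads in the *gata2a*+ *runx1*+ library, 18 reads in the *gata2a*- *runx1*+ library, and 133 reads in the *gata2a*+ *runx1*- library, and its copies ENSDARG00000043093 and ENSDARG00000078569 had 0 reads in all 3 libraries. The macrophage list shares genes with the lists above, IRF8, MRC1, *marco*, and *csf1ra* among them.

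The 13 neutrophil marker genes summed to 453.4 RPM in the *gata2a*+ *runx1*+ library, 648.3 RPM in the *gata2a*- *runx1*+ library, and 698.7 RPM in the *gata2a*+ *runx1*- library. Over 3 reads were counted for 10 of them in the *gata2a*+ *runx1*+ library, 9 in the *gata2a*- *runx1*+ library, and 10 in the *gata2a*+ *runx1*- library. This sum had the order of *cybb* and of none of the other 5 oxidase genes. Without its most read gene, *npsn*, the sums were 270.1 RPM in the *gata2a*+ *runx1*+ library, 356.2 RPM in the *gata2a*- *runx1*+ library, and 337.6 RPM in the *gata2a*+ *runx1*- library, which is the order of none of the 6. By gene, 3 of 11 tested were over 2-fold higher and 2 lower in the *gata2a*+ *runx1*+ than in the *gata2a*- *runx1*+ library (all genes, 23.5% and 13.5%). Against the *gata2a*+ *runx1*- library, 3 of 11 were higher and 3 lower in the *gata2a*+ *runx1*+ library (all genes, 20.5% and 24.0%). Likewise 1 of 10 was higher and 4 lower in the *gata2a*- *runx1*+ library (all genes, 20.1% and 29.0%). The most read genes were *npsn*, a metalloprotease, at 183.3 RPM in the *gata2a*+ *runx1*+ library, 292.1 RPM in the *gata2a*- *runx1*+ library, and 361.1 RPM in the *gata2a*+ *runx1*- library, and *mpx*. The defining markers *lyz* and CSF3R were near the floor, with 1 and 7 reads in the *gata2a*+ *runx1*+ library, 4 and 2 reads in the *gata2a*- *runx1*+ library, and 5 and 0 reads in the *gata2a*+ *runx1*- library. MMP9 was highest in the library where the sum was lowest. It was at 36.6 RPM in the *gata2a*+ *runx1*+ library, 5.97 RPM in the *gata2a*- *runx1*+ library, and 7.17 RPM in the *gata2a*+ *runx1*- library.

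The *gata2a*+ *runx1*- library was also the one with B cell markers. These 13 genes summed to 74.0 RPM in the *gata2a*+ *runx1*+ library, 16.1 RPM in the *gata2a*- *runx1*+ library, and 2866 RPM in the *gata2a*+ *runx1*- library, of which the immunoglobulin gene *ighm* made up 64.9 RPM in the *gata2a*+ *runx1*+ library, 11.2 RPM in the *gata2a*- *runx1*+ library, and 2023 RPM in the *gata2a*+ *runx1*- library. Over 3 reads were counted for 4 of them in the *gata2a*+ *runx1*+ library, 3 in the *gata2a*- *runx1*+ library, and 11 in the *gata2a*+ *runx1*- library. *ighz*, PAX5, and RAG1 had 0 reads in both *runx1*+ libraries. RAG2, which encodes the partner of RAG1 in V(D)J recombination, went the other way, with 9 reads in the *gata2a*+ *runx1*+ library, 0 reads in the *gata2a*- *runx1*+ library, and 0 reads in the *gata2a*+ *runx1*- library. The light chain gene *igl4v8* had 2 reads in the *gata2a*+ *runx1*+ library, 0 reads in the *gata2a*- *runx1*+ library, and 1686 reads in the *gata2a*+ *runx1*- library. The 10 T and NK cell genes summed to 16.9 RPM in the *gata2a*+ *runx1*+ library, 2.06 RPM in the *gata2a*- *runx1*+ library, and 65.5 RPM in the *gata2a*+ *runx1*- library, again the order of *cyba*. Over 3 reads were counted for 6 of them in the *gata2a*+ *runx1*+ library, 2 in the *gata2a*- *runx1*+ library, and 7 in the *gata2a*+ *runx1*- library. Their most read genes, TOX and *il7r*, were at 3.94 and 2.34 RPM in the *gata2a*+ *runx1*+ library, 0.85 and 0.24 RPM in the *gata2a*- *runx1*+ library, and 23.5 and 18.0 RPM in the *gata2a*+ *runx1*- library. The defining T cell markers *lck*, *cd4-1*, and *cd8a* were read only in the *gata2a*+ *runx1*- library, and there near the floor.

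The erythroid marker sum was highest in the *gata2a*- *runx1*+ library, as was the thrombocyte marker sum once FLI1 was left out. The 11 erythroid genes summed to 406.3 RPM in the *gata2a*+ *runx1*+ library, 3499 RPM in the *gata2a*- *runx1*+ library, and 146.2 RPM in the *gata2a*+ *runx1*- library. Over 3 reads were counted for 9 of them in the *gata2a*+ *runx1*+ library, 9 in the *gata2a*- *runx1*+ library, and 4 in the *gata2a*+ *runx1*- library. SLC4A1, the anion exchanger of red cells, was at 267.5 RPM in the *gata2a*+ *runx1*+ library, 2463 RPM in the *gata2a*- *runx1*+ library, and 4.20 RPM in the *gata2a*+ *runx1*- library. UROD, an enzyme of heme synthesis, was at 56.6 RPM in the *gata2a*+ *runx1*+ library, 296.5 RPM in the *gata2a*- *runx1*+ library, and 139.1 RPM in the *gata2a*+ *runx1*- library. The 11 thrombocyte genes summed to 1712 RPM in the *gata2a*+ *runx1*+ library, 1310 RPM in the *gata2a*- *runx1*+ library, and 502.7 RPM in the *gata2a*+ *runx1*- library. Over 3 reads were counted for 10 of them in the *gata2a*+ *runx1*+ library, 11 in the *gata2a*- *runx1*+ library, and 7 in the *gata2a*+ *runx1*- library. The most read was the factor gene FLI1, at 1489 RPM in the *gata2a*+ *runx1*+ library, 519.6 RPM in the *gata2a*- *runx1*+ library, and 60.2 RPM in the *gata2a*+ *runx1*- library. FLI1 made up most of the sum in the *gata2a*+ *runx1*+ library, and without it the sums were 222.6 RPM in the *gata2a*+ *runx1*+ library, 790.4 RPM in the *gata2a*- *runx1*+ library, and 442.5 RPM in the *gata2a*+ *runx1*- library. By gene, 4 of the 11 thrombocyte markers were over 2-fold higher and 6 lower in the *gata2a*+ *runx1*+ library than in the *gata2a*- *runx1*+ library, with a median log2 ratio of -1.41. Of all genes tested there, 23.5% were higher and 13.5% lower. The integrin gene *itga2b*, a defining marker, was at 37.8 RPM in the *gata2a*+ *runx1*+ library, 367.5 RPM in the *gata2a*- *runx1*+ library, and 0.37 RPM in the *gata2a*+ *runx1*- library. FLI1 was followed in reads by the factor gene NFE2, at 113.5 RPM in the *gata2a*+ *runx1*+ library, 53.6 RPM in the *gata2a*- *runx1*+ library, and 366.7 RPM in the *gata2a*+ *runx1*- library, the order of *cyba*. The part of any of these cell types in the levels of the oxidase genes was not tested.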

How the data were processed

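Sorted cells were lysed directly, and cDNA was primed on poly-A tails, amplified by Quartz-Seq without molecular identifiers, and made into Nextera XT libraries. For alignment to GRCz11 the authors used HISAT2 (2.1.0), and for RPM, deposited with 2 decimals, Subread (1.6.4). The annotation release, the use of strand, and the treatment of reads with several matches are not given in the sources used here, so that genes with near-identical copies, PRDX1 and MPEG1 among them, are uncertain. RPM gives no level per length, and levels were not compared between genes.

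The RPM steps gave back whole reads: for each library the smallest total was taken that turned all values into integers within rounding (100.0% of values). The totals were 8123636 for gata2a+ runx1+, 8205803 for gata2a- runx1+, and 8094670 for gata2a+ runx1-. Any whole multiple of a total would satisfy the same condition. The steps were tested on simulated data. Symbols came from the study's gene table for marker genes and from a table of identifiers and symbols, in which many zebrafish genes have the human symbol.

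Ratios of RPM used a floor of 3 reads and a 2-fold limit. Genes with over 3 reads in at least 1 of the 2 libraries were tested. Intervals of ratios are exact conditional (Clopper-Pearson) intervals, and those of levels are Wilson intervals. Fisher's exact test was run in scipy 1.17.1 (Python 3.11.15) with Benjamini-Hochberg adjustment over all genes with a read in either library. Genes named were the 6 oxidase genes, all further oxidase subunits, of each other pathway list the 3 genes with the largest ratio among those with at least 100 reads, of each marker list the 2 genes with the most reads, the 5 nearest to cybb, and gata2a, runx1, and mpx. Further marker genes (csf1ra, marco, MPEG1, lyz, CSF3R, MMP9, ighz, PAX5, RAG1, RAG2, itga2b, lck, cd4-1, cd8a) were chosen after their values were seen. So were the other RAC3 gene (ENSDARG00000020795), spi1a, and the sums without the most read gene of a list. Some genes of the lists are not reported here and were left out of their counts. The genes and lists were chosen with earlier results of these data known. Alternatives were TMM factors (edgeR 4.0.16) and size factors (DESeq2 1.42.0) in R 4.3.3, used for scaling only, other pseudocounts, limits, and filters. No promoter sequences were used here.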

Additional observations from a re-analysis of the deposited data

How the results depend on the processing

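No paired analysis was possible because each population had 1 library, and for the same reason no replicate could be left out. The counts of oxidase genes over 2-fold kept to within 1.5 times of their values under the TMM factors, the DESeq2 size factors, totals without the 20 most read genes of each library, both pseudocounts, and the added Fisher's exact test. They moved with the fold limit: over 3-fold, 2 of the 6 genes were higher in the gata2a+ runx1+ than in the gata2a- runx1+ library (5 over 2-fold), and 3 differed between the gata2a+ runx1+ and gata2a+ runx1- libraries (5 over 2-fold). Of 108 values of single oxidase genes under alternatives, 106 stayed on their side of the limit, and 0 reversed. The other 2 were hvcn1 between the gata2a+ runx1+ and gata2a- runx1+ libraries, at a log2 ratio of 0.73 with a pseudocount of 1 RPM and uncalled where Fisher's exact test was required. Of 684 values of other named genes, 662 stayed and 0 reversed. DESeq2 size factors shifted the median log2 ratio of all genes between the gata2a+ runx1+ and gata2a+ runx1- libraries by -0.10, and no other scaling shifted a median by more. With at least 1000 reads, 0 of the 5 genes nearest to cybb were shared, since all 5 had fewer reads. Depth limits the statements on hvcn1, CYBC1, and the further subunits, with at most 28 reads each in a library. The absence of replicates limits all of them.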
